A study of Saccharomyces cerevisiae with 14 samples.

Results

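The budding yeast HSP26 deletion strain was compared with its parent strain, WT, across all genes. Of the 5886 genes in the expression table, 5727 averaged 1 FPKM or more over all 14 libraries and were tested, and the remaining 159 were not. FPKM is the number of sequenced fragments of a transcript divided by the transcript's length and by the size of the library. It therefore gives levels relative to each library's own total. A comparison between libraries also depends on how much of that total other transcripts take. The HSP26 deletion had 3 libraries and WT had 2. The series also held 3 libraries each of an MSB3 deletion, a NIT3 deletion and a TYS1 DAmP strain, in which a cassette placed after the reading frame lowers the TYS1 transcript. The study examined these genes as candidate regulators of replicative lifespan, the number of daughter cells that a mother cell produces.

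All strains were haploid derivatives of BY4741, a laboratory strain of the S288C background with auxotrophies for histidine, leucine, methionine and uracil. The cells were grown in YPD, a rich medium with glucose, and collected in logarithmic phase. In a deletion strain the reading frame is replaced by a drug resistance or a HIS marker cassette, and the sources used here do not say which cassette replaced HSP26. Replicates were labelled as biological, but nothing says that they came from separate cultures or separate transformants, so the p-values below measure the spread between these libraries. The RNA came from whole cultures. A change of a transcript in every cell and a change in the proportion of cells in a given state therefore cannot be told apart.

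Hsp26 is a small heat shock protein. Proteins of this family form large assemblies that bind unfolding proteins and keep them in a form from which the disaggregase Hsp104 and the Hsp70 chaperones can refold them. In yeast the HSP26 transcript is scarce in cells dividing in glucose and accumulates after heat shock, on entry into stationary phase and in other stresses, under the transcription factors Hsf1 and Msn2/Msn4. The comparison therefore asks what changed in cells that lacked a protein they normally make little of under these growth conditions.

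The libraries held approximately 22400000 to 26000000 fragments each, as recovered from the steps between low FPKM values, with 24600000 to 25700000 in the HSP26 deletion and 22400000 to 24400000 in WT. MET17 and the mating receptor genes matched the labels. MET17, which is deleted in BY4741, was at 0 to 0.03 FPKM in all 14 libraries. The a-type receptor gene STE2 was at 90.49 to 667.8 FPKM against 4.99 to 19.46 FPKM for the alpha-type receptor gene STE3. HIS3, in contrast, was at 121.58 to 230.93 FPKM in all 14 libraries, so its level did not mark the histidine auxotrophy. The alpha-type gene MF(ALPHA)2 was at 4.97 to 10.68 FPKM, low but not 0. Among the HSP26 deletion libraries, replicate 2 lay closest to WT. The interquartile range of its log2 differences from the WT mean was 0.30, against 0.63 for replicate 1 and 0.54 for replicate 3, and 0.12 for the WT libraries. The labels give no batch or date.

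HSP26 itself (YBR072W, chrII:382030-382674, plus strand, R64 build) was at 0.15, 0.08 and 0.08 FPKM in the 3 HSP26 deletion libraries and at 77.49 and 94.55 FPKM in the WT libraries. These values correspond to about 4 fragments in the deletion libraries together and 2016 in the WT libraries. The level in the deletion was 0.123% of that in WT (95% exact interval 0.0335 to 0.315%, counting error only), which is 813-fold lower (317 to 2990). On the log2(FPKM + 1) scale used for all tests the difference was −6.29 (SE 0.19, limma, adjusted p = 2.44e-05). The adjusted p was under 0.05 in 12 of 14 alternative analyses, with a range of 2.83e-22 to 0.396. HSP26 was the gene with the smallest p in the comparison, and the transcript was nearly absent in the 3 libraries labelled as deletion and present in the WT libraries. In the 9 libraries of the other mutants, HSP26 ranged from 98.39 to 3626.7 FPKM, so its level also varied widely among strains that carry the gene.

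The genes beside HSP26 showed little difference. Of the genes within 10 places on either side on chromosome II, 17 were tested, their median log2 difference was −0.00, and 2 were called at the thresholds described below. NRG2, a transcriptional repressor related to Nrg1 of glucose repression, lay 7 places before HSP26. It was at 126.1, 175.8 and 97.09 FPKM in the deletion and 94.27 and 54.02 FPKM in WT (log2 difference 0.85, SE 0.31, adjusted p = 0.284). ECM8, 4 places after HSP26, was at 2.07, 2.82 and 2.48 FPKM against 4.76 and 5.52 FPKM in WT (−0.83, SE 0.21, adjusted p = 0.200). The nearest tested gene on each side was close to WT, with log2 differences of −0.12 for YBR071W and −0.06 for RDH54. YBR072C-A, which lies between HSP26 and RDH54, was listed at 0 FPKM in all 14 libraries and was not tested. Over the 16 nuclear chromosomes, the median log2 difference ranged from 0.05 to 0.12, so no chromosome as a whole was displaced.

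**Figure D1:**
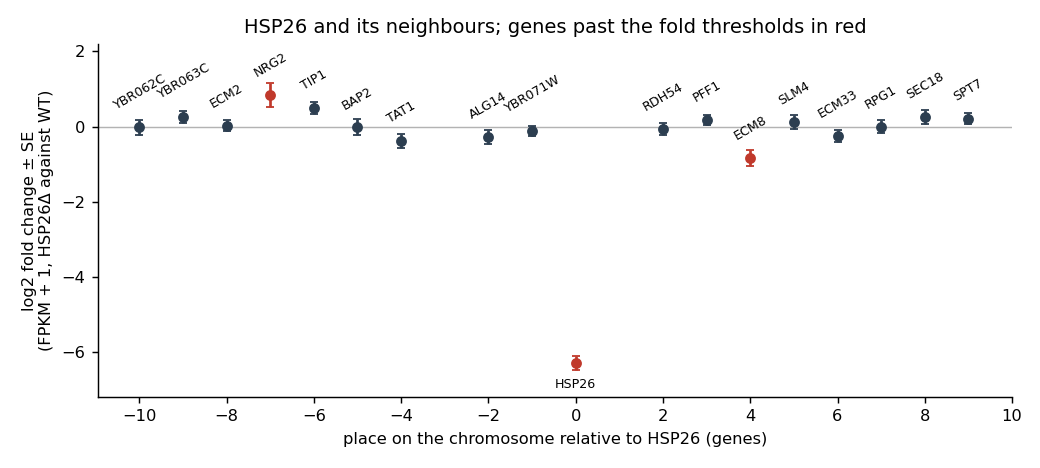
Log2 difference between the HSP26 deletion and WT for genes within 10 places on either side of HSP26, in gene order, with bars for the standard error over 3 and 2 libraries and called genes in red. HSP26 lies at −6.29, and its tested neighbours lie between −0.83 and 0.85.

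Genes were called higher at a fold above 1.5, or lower at a fold below 0.7, with an unadjusted limma p under 0.05, which are the fold thresholds the study named. By this rule 325 genes (5.67% of those tested) were called higher and 138 (2.41%) lower in the HSP26 deletion. Only HSP26 and ZRT1 passed Benjamini-Hochberg adjustment over all 5727 genes at 0.05 (0.0349%), and 23 genes had an adjusted p under 0.10. An unadjusted p under 0.05 was found for 894 genes (15.6%). "Called" below refers to the fold rule, and apart from these 2 genes no called gene passed the adjusted threshold. All 3 deletion libraries lay above both WT libraries for 1579 genes (27.6%) and below both for 757 (13.2%), and these shares are the background for the counts of non-overlapping genes given below.

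More genes were called higher than lower, but this balance depended on scaling. The median log2 difference of all genes was 0.08. After median-ratio scaling of the libraries it was −0.01, and 247 genes were called higher and 258 lower, so the share of higher calls went from 70.2% to 48.9%. Replicate 2 of the deletion was the library nearest to WT for 266 of the 325 higher calls and 107 of the 138 lower calls. Without it, 554 genes were called higher and 394 lower, 468 genes passed the adjusted threshold, and 309 of the 325 and 131 of the 138 original calls were among those called. The calls that were made in each of the 5 fits leaving out 1 library numbered 130 higher and 36 lower.

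ZRT1, the high-affinity zinc transporter of the plasma membrane, showed the clearest rise. It was at 191.97, 126.98 and 162.47 FPKM in the HSP26 deletion, a mean of 160.5 ± 32.5 FPKM (SD, n = 3), and at 32.93 and 38.55 FPKM in WT. The lowest deletion library thus lay far above the higher WT library. The log2 difference was 2.12 (SE 0.20, limma, adjusted p = 0.0408). The value ranged from 1.98 to 2.28 over 14 alternative analyses, while the adjusted p ranged from 1.83e-07 to 0.493 and was under 0.05 in 5 of them. The other mutants held ZRT1 at 24.64 to 99.29 FPKM, all below the lowest library of the HSP26 deletion. The stretch before ZRT1 is shown because it carries a zinc-responsive element, the palindrome that the zinc-sensing activator Zap1 binds. Capitals mark the element, which was searched on both strands in the 500 bases before each annotated start as ACCTT, any base, AAGGT. The sequence is from the RefSeq R64 genome, written 5′ to 3′ on the strand of the gene, and lies at chrVII:20765-20793, plus strand, 204 bases before the start.
ZRT1: acatatttgACCTTGAAGGTcatggaaag

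Of all 5720 windows read, 0.157% held this element. In the list of zinc uptake and Zap1-responsive genes it was found before 2 of 25 members, and ZRT1 was the only one of the 6 members called higher that had it. The list as a whole had 6 genes called higher and 1 lower of 25, with a median log2 difference of 0.26 against 0.08 for all genes. With scaling it had 4 higher and 1 lower, and without replicate 2 of the deletion 8 higher and 1 lower. Members that are not themselves zinc transporters made up most of the calls. IZH4, a membrane protein of the adiponectin receptor family linked to zinc and sterol metabolism, was at 160.28, 115.35 and 272.67 FPKM against 74.59 and 70.69 FPKM in WT (log2 difference 1.23). COT1, a vacuolar transporter of zinc and cobalt, was at 131.13, 102.83 and 114.54 FPKM against 70.59 and 58.65 FPKM (0.84). Both had all deletion libraries above both WT libraries. ZAP1, the activator itself, was at 18.25, 9 and 18.37 FPKM against 6.95 and 7.70 FPKM (0.90, adjusted p = 0.279). The low-affinity transporter gene ZRT2 had a log2 difference of 0.53 and the vacuolar exporter gene ZRT3 0.40, and neither was called. VEL1, an open reading frame known to be induced in zinc deficiency, was the single member called lower, at 2.65, 2.77 and 0.66 FPKM against 7.09 and 6.85 FPKM (−1.49).

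Iron uptake genes formed one of the lists with the most higher calls. Yeast takes up iron through secreted siderophores bound at the cell wall by the mannoproteins Fit1, Fit2 and Fit3 and imported by the Arn family, and through reduction at the cell surface by Fre reductases followed by the Fet3-Ftr1 complex. Both systems are activated by Aft1 and Aft2 when iron is low. Of 39 tested members of the siderophore and iron uptake list, 12 were called higher and 1 lower, and the median log2 difference was 0.38. The deletion libraries were all above both WT libraries for 19 members and all below for 1. With scaling the counts were 11 higher and 1 lower with a median of 0.28, and without replicate 2 of the deletion 13 higher and 2 lower.

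The stretches before 4 of these genes are shown because they hold the core that Aft1 binds, TGCACCC, searched on both strands and marked in capitals. It was found in 2.33% of all windows, in 4.32% of the windows of all genes called higher, in 59.0% of those of the iron list and before 9 of its 12 members called higher. In 8 of all windows a TGCACCC match shared a base with a CCCCT match, described below. The sequences are from RefSeq R64, on the strand of the gene, at chrIV:1505067-1505091 (FIT1, minus strand), chrXV:1059256-1059280 (FIT2, plus strand), chrXV:1061224-1061248 (FIT3, minus strand) and chrX:448888-448912 (LSO1, minus strand). Matches describe the letters present, and binding was not measured.
FIT1: tctaggaaaGGGTGCAaaaaaatga
FIT2: ttaaaacaaTGCACCCtaagttcaa
FIT3: tctaggaaaGGGTGCAaaaaaatgg
LSO1: cgagaatgtTGCACCCttttttcca

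The 3 FIT genes were higher in every deletion library than in either WT library. FIT1 was at 537.32, 293.98 and 306.13 FPKM against 101.14 and 36.48 FPKM in WT, a log2 difference of 2.56 (SE 0.45, adjusted p = 0.116). FIT3 was at 19624.91, 13875.63 and 15214.26 FPKM against 6069.83 and 3367.91 FPKM (1.83, SE 0.29, adjusted p = 0.0983). FIT2 was at 25511.96, 21150.61 and 24598.53 FPKM against 11423.15 and 5628.13 FPKM (1.56, SE 0.30, adjusted p = 0.166). FIT2 and FIT3 were far more abundant than FIT1. Together the 3 transcripts made up 3.04, 2.0 and 2.43% of the FPKM sum in the deletion libraries and 0.973 and 0.521% in WT, nearly all of it from FIT2 and FIT3. The WT libraries differed from each other for all 3 genes, with replicate 1 the higher.

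Siderophore transporters and a reductase were called with smaller differences. ARN2, an importer of triacetylfusarinine-bound iron, was at 388.58, 317.07 and 266.13 FPKM against 176.46 and 110.08 FPKM (log2 difference 1.19). SIT1, the ferrioxamine importer also known as ARN3, was at 206.87, 250.19 and 173.40 FPKM against 119.51 and 93.15 FPKM (0.97). FRE2, a ferric reductase of the plasma membrane, was at 25.44, 31.23 and 24.38 FPKM against 13.74 and 9.76 FPKM (1.15, SE 0.19, adjusted p = 0.107). The differences for the importer genes ARN1 and ENB1 were 0.66 and 0.87, and those for the vacuolar iron importer gene CCC1 and the biotin transporter gene VHT1 were 0.82 and 0.81. No TGCACCC match was found before CCC1 or VHT1. LSO1, a short ribosome-associated protein induced in iron deprivation, was at 75.1, 24.07 and 14.79 FPKM against 3.72 and 1.6 FPKM (3.15, SE 0.62, adjusted p = 0.166), the largest rise of any gene tested, with replicate 1 of the deletion well above the others. The genes of the reductive complex were not called, with differences of 0.38 for FET3 and 0.34 for FTR1. AFT1 was at 55.03, 53.42 and 38.64 FPKM against 40.34 and 40.81 FPKM (0.25, adjusted p = 0.483). CTH1, which promotes decay of transcripts for iron-using proteins, was the member called lower, at 77.11, 106.34 and 52.99 FPKM against 122.67 and 122.70 FPKM (−0.69). TIS11 had the lowest difference of the list, −0.86, and was not called.

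**Figure D2:**
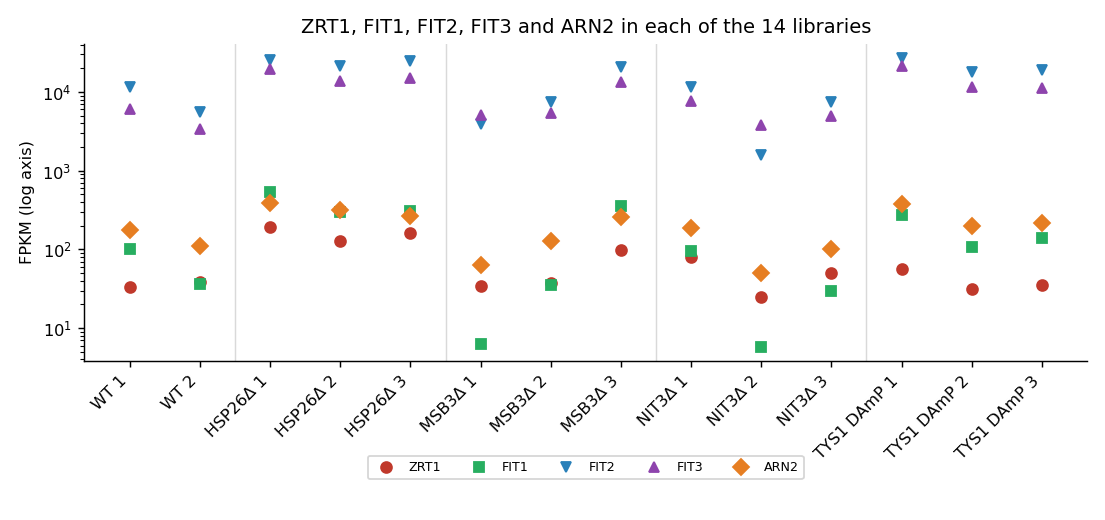
FPKM on a log axis of zinc and iron genes in each library of all 5 groups, 1 point for each library. The ZRT1 points of the HSP26 deletion lie at 126.98 to 191.97 FPKM, above all other libraries, while for the FIT genes libraries of the other mutants reach the range of the deletion or, for FIT2 and FIT3 in TYS1 DAmP replicate 1 (26693.56 and 21594.23 FPKM), lie above it.

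General stress genes were called in one direction only. Msn2 and Msn4 activate a broad set of protective genes through the stress response element when growth slows or protein kinase A activity is low. Of 42 tested members of the general stress list, 15 were called higher and none lower, with a median log2 difference of 0.66. The deletion libraries were all above both WT libraries for 26 members and all below for none. Scaling left 15 higher calls and a median of 0.57, and over the 5 fits leaving out 1 library the number of higher calls was between 11 and 22. The list median relative to WT was 1.01, 0.40 and 0.40 in replicates 1, 2 and 3.

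FMP16, a mitochondrial protein of unknown function known to respond to stress, was at 81.34, 72.50 and 81.36 FPKM in the deletion and 35.44 and 25.56 FPKM in WT (log2 difference 1.35, SE 0.17, adjusted p = 0.0763). RTN2, a reticulon of the endoplasmic reticulum, was at 108.71, 48.90 and 89.37 FPKM against 26.59 and 25.28 FPKM (1.55, SE 0.31, adjusted p = 0.166). The secreted glycoprotein gene YGP1 was at 697.02, 326.60 and 312.33 FPKM against 134.22 and 166.28 FPKM (1.47). In these genes the deletion and WT groups did not overlap. DDR48, first described as induced by DNA damage, was at 733.65, 501.89 and 713.45 FPKM against 287.98 and 301.03 FPKM (1.12). Not every member shared the pattern. HSP12, a membrane-associated stress protein and a common marker of Msn2/Msn4 activity, was at 132.81, 148.38 and 77.85 FPKM against 95.67 and 131.82 FPKM, a log2 difference of 0.04. The differences of HOR7, SIP18 and GRE1 were −0.27, −0.11 and −0.07.

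Trehalose and glycogen are the storage carbohydrates of yeast, and trehalose also protects proteins from aggregation. Of the 7 tested trehalose genes, 5 were called higher, and all 7 had every deletion library above both WT libraries. The list median was 0.79 (0.69 with scaling). No trehalose gene was called when WT replicate 1 was left out, 3 without replicate 3 of the deletion and all 7 without its replicate 2. TSL1, a regulatory subunit of trehalose synthase, was at 257.91, 116.92 and 162.17 FPKM against 76.55 and 85.90 FPKM in WT (log2 difference 1.06, SE 0.31, adjusted p = 0.251). TPS1, the catalytic synthase subunit, was at 574.29, 275.42 and 404.95 FPKM against 195.51 and 213.91 FPKM (0.97, SE 0.30, adjusted p = 0.264). Genes for synthesis and for breakdown were both among the calls, the latter represented by the trehalase gene NTH1 (0.79). The phosphatase gene TPS2 was at 312.73, 137.53 and 216.75 FPKM against 92.05 and 110.87 FPKM (1.05).

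The glycogen list had 7 of 14 genes called higher and none lower, with a median of 0.65, and between 5 and 8 higher calls when 1 library was left out. GLC3, the branching enzyme, was at 170.53, 93.48 and 145.03 FPKM against 66.09 and 43.63 FPKM (1.28, SE 0.29, adjusted p = 0.170). GSY2, the main glycogen synthase, was at 338.99, 173.58 and 270.22 FPKM against 113.30 and 108.22 FPKM (1.18). As with trehalose, a breakdown gene was called beside the synthetic ones, the glycogen phosphorylase gene GPH1 (1.06), and PGM2, which interconverts glucose phosphates, had a difference of 1.16.

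The stress response element core, CCCCT on either strand, is a short word that was found in 34.3% of all windows. It was found before 58.3% of the genes called higher and 29.0% of those called lower, before all 15 stress genes and all 5 trehalose genes called higher, and before 6 of 7 called glycogen genes. Over all members of these lists, called or not, the shares were 85.7, 85.7 and 78.6%. Sequences before RTN2 (chrIV:94436-94458) and TSL1 (chrXIII:70450-70472), both on the plus strand in R64, are shown as examples with CCCCT or its complement AGGGG in capitals.
RTN2: aggcaatctCCCCTtattgttca
TSL1: gtagaaccaAGGGGctagcacac

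**Figure D3:**
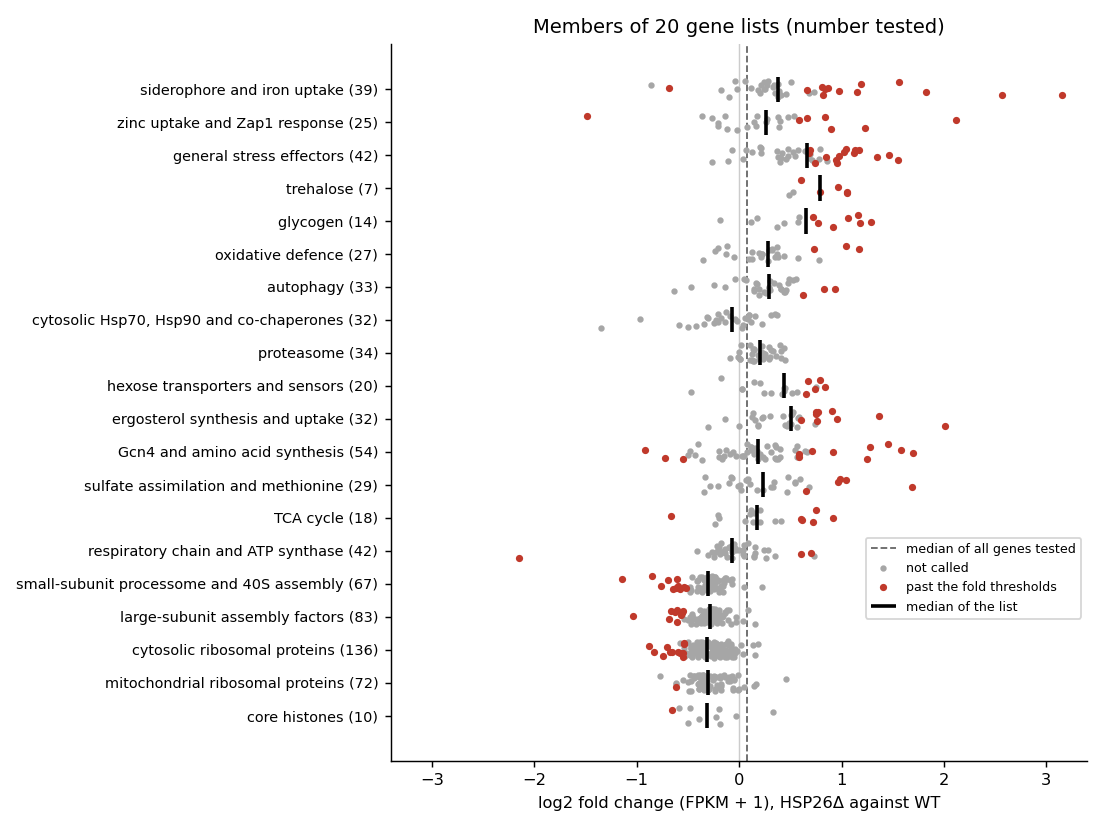
Log2 difference between the HSP26 deletion and WT for the tested members of 20 gene lists, 1 point for each gene, red where called, with a black bar at the list median and a dashed line at the median of all genes (0.08). The medians of the trehalose, stress and glycogen lists are 0.79, 0.66 and 0.65, and those of the small- and large-subunit assembly lists −0.30 and −0.29.

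Apart from HSP26, no chaperone gene in the lists below was called. Among 10 tested small heat shock protein and disaggregase genes, HSP26 was the only one called, and the list median was −0.01. HSP42, the other cytosolic small heat shock protein of yeast, which is made in dividing cells and sorts misfolded proteins into deposits, was at 846.71, 1044.42 and 611.99 FPKM against 865.47 and 1057.63 FPKM in WT (log2 difference −0.23). HSP104, the disaggregase that works on substrates held by Hsp26, was at 1001.79, 789.14 and 884.48 FPKM against 398.63 and 847.52 FPKM (0.61, not called). HSP42 and HSP104 both had overlapping groups. The differences of HSP104 and of HSP30 (0.58, not called) were near the stress list median of 0.66. None of the 32 genes for cytosolic Hsp70, Hsp90 and their co-chaperones was called in either direction, with a median of −0.07, and 4 were called lower without replicate 2 of the deletion. SSA4, a heat-inducible Hsp70, was at 302.03, 392.60 and 154.73 FPKM against 229.82 and 460.16 FPKM (−0.30). BTN2, a sorting factor for aggregated proteins, had the lowest value of this list at 699.84, 1376.45 and 127.03 FPKM against 1280.67 and 1262.05 FPKM (−1.35, SE 0.87), with a spread within the deletion group that covered the WT level.

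The degradation pathways differed in small steps. None of the 34 proteasome genes was called, and their median was 0.20 (0.11 with scaling). None of the 15 endoplasmic reticulum chaperone and unfolded protein response genes was called either, with a median of 0.13. Of 33 autophagy genes, 3 were called higher and none lower, with a median of 0.29. Without replicate 2 of the deletion 6 were called higher and 2 lower. ATG8, the ubiquitin-like protein that coats autophagosomes, was at 138.87, 141.86 and 228.99 FPKM against 93.65 and 91.59 FPKM (0.83). ATG22, which exports amino acids from the vacuole, was at 33.01, 26.73 and 36.69 FPKM against 15.55 and 16.93 FPKM (0.93). The sterol glucosyltransferase gene ATG26 was the other one called. Of 12 vacuolar hydrolase and inhibitor genes, 2 were called higher, the carboxypeptidase Y inhibitor gene TFS1 and the mannosidase gene AMS1, the median was 0.42, and 1 to 4 were called when 1 library was left out.

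Genes for making ribosomes were called in the opposite direction to the stress genes. Ribosomal RNA is processed and packed with proteins by the small-subunit processome and by large-subunit assembly factors, whose genes share promoter elements and fall together with ribosomal protein genes when growth signalling declines. In the HSP26 deletion, 11 of 67 small-subunit assembly genes and 9 of 83 large-subunit assembly genes were called lower, none was called higher, and the medians were −0.30 and −0.29. All deletion libraries were below both WT libraries for 43 and 49 of these genes, respectively, and above both for none. Without replicate 2 of the deletion the counts were 20 and 25 lower, and when another library was left out they were 2 to 3 and 2 to 5, so the number of calls rested on the libraries included. With scaling, which centred all genes at −0.01, 15 and 19 were called lower.

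CGR1, a nucleolar factor for 60S assembly, was at 150.78, 247.80 and 230.24 FPKM against 404.78 and 439.95 FPKM in WT (log2 difference −1.04, SE 0.24, adjusted p = 0.170). FYV7, a factor for 18S rRNA processing, was at 74.82, 127.49 and 81.67 FPKM against 228.41 and 184.17 FPKM (−1.15, SE 0.25, adjusted p = 0.167). The groups did not overlap for either gene. Other genes called lower included UTP23 (−0.85) and UTP11 (−0.76) of the processome, IMP3 and IMP4 of the complex that guides U3 pairing, and the large-subunit factor genes YTM1, RPF1 and RRP17. The PAC element, GATGAG, is a hallmark of promoters of this group. It was found on either strand in 28.2% of all windows, before 40.6% of the genes called lower and 22.8% of those called higher, and before 10 of 11 and all 9 of the called small- and large-subunit genes. The element is as common in the lists as a whole, at 88.1% and 89.2% of their windows. Stretches before CGR1 (chrVII:439923-439946) and FYV7 (chrXII:270920-270943), both on the plus strand in R64, are shown with the element or its complement in capitals.
CGR1: ggaaaaagcGATGAGataaaattt
FYV7: aaatcaaacCTCATCgcgatagta

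Ribosomal protein genes had a median close to that of the assembly genes. Of 136 tested, 12 were called lower and none higher, and the median was −0.31, with 72 having all deletion libraries below both WT libraries and none above. The count was 26 with scaling, 33 without replicate 2 of the deletion, 5 without its replicate 3, and 1 and 2 without WT replicates 1 and 2. RPL18B, a 60S protein, was at 465.72, 662.37 and 399.16 FPKM against 931.07 and 897.86 FPKM (−0.88). Many ribosomal protein genes exist as near-identical pairs, so the split of fragments between copies such as RPL23A and RPL23B, both called lower, is uncertain. The whole class took 38.6, 45.5 and 41.7% of the FPKM sum in replicates 1, 2 and 3 of the deletion and 48.4 and 47.0% in WT. The medians of the class relative to WT were −0.48, −0.10 and −0.35 in the same order, so replicate 2 was close to WT in this respect too. Of 28 RNA polymerase I and III subunit genes, 1 was called lower, RPA12, and the median was −0.26. The lower calls of that list were 8 without replicate 2 of the deletion and 0 without its replicate 3. Translation factors and aminoacyl-tRNA synthetases had medians of −0.12 and −0.04, with 1 lower call in 39, TIF11, and none in 18.

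**Figure D4:**
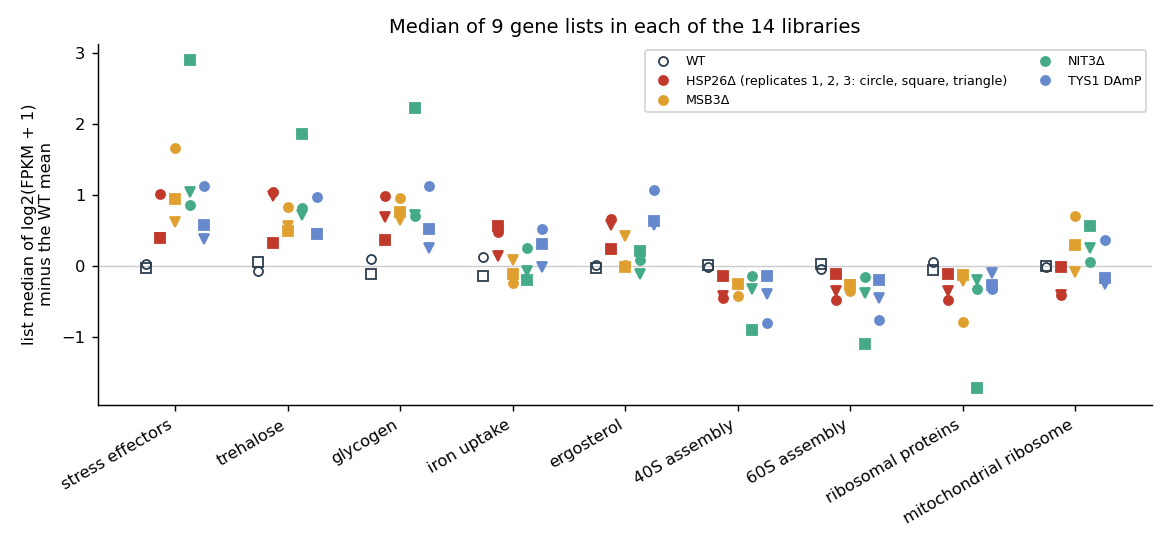
Median log2 difference from the WT mean of selected gene lists in each library of all 5 groups. In the HSP26 deletion the stress median is 1.01, 0.40 and 0.40 and the ribosomal protein median −0.48, −0.10 and −0.35 in replicates 1, 2 and 3, with replicate 2 nearest to 0 for the ribosomal proteins.

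Genes of amino acid synthesis, many of them targets of the activator Gcn4, had calls in both directions. Of 54 tested, 9 were called higher and 3 lower, the median was 0.18, and scaling gave 7 higher and 6 lower. When 1 library was left out there were 6 to 12 higher calls and 0 to 5 lower, with none lower without WT replicate 2 and 5 lower without replicate 3 of the deletion. ARG3, ornithine carbamoyltransferase of arginine synthesis, was at 64.79, 35.66 and 79.36 FPKM against 16.39 and 17.41 FPKM in WT (log2 difference 1.69, SE 0.31, adjusted p = 0.132). ARG1, argininosuccinate synthetase, was at 601.23, 266.23 and 613.79 FPKM against 174.39 and 162.23 FPKM (1.45, SE 0.36, adjusted p = 0.196). SNZ1, a vitamin B6 synthesis gene, was at 66.77, 41.69 and 84.77 FPKM against 19.30 and 20.82 FPKM (1.58, SE 0.28, adjusted p = 0.116). The arginine genes ARG1, ARG3 and ARG5,6 and the branched-chain transaminase gene BAT2 (1.28) were higher, whereas LEU1, an isomerase of leucine synthesis, was lower at 71.69, 45.14 and 101.36 FPKM against 113.73 and 151.60 FPKM (−0.92), together with LEU9 (−0.55) and the lysine gene LYS4 (−0.72). The Gcn4 core TGACTC was found on either strand in 12.7% of all windows and 69.8% of those of the list. It was found before 7 of the 8 list members called higher that had a window, where SNZ1 and SNO1 share theirs. It was also found before 2 of the 3 list members called lower, LEU1 and LEU9. Among all genes called, it was in 43 of 324 windows of higher calls and 18 of 138 windows of lower calls. These shares were close to that of all windows. The examples are at chrX:268476-268499 for ARG3 and chrXIII:458145-458168 for SNZ1, plus strand in R64, with the core in capitals.
ARG3: gtcacgtcgTGACTCatatgcttt
SNZ1: atgacataaTGACTCagccgacaa

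Nutrient transporters were among the larger rises. GAP1, the general amino acid permease that is repressed on good nitrogen sources, was at 45, 12.41 and 37.64 FPKM against 6.46 and 7.24 FPKM (log2 difference 1.88). DIP5, the aspartate and glutamate permease, was at 133.88, 85.18 and 119.04 FPKM against 38.95 and 45.38 FPKM (1.38, SE 0.21, adjusted p = 0.0958). These were the only 2 of 20 permease genes called, against 4 without replicate 2 of the deletion and 1 without WT replicate 1. CHA1, which degrades serine and threonine and is induced by them, was at 522.24, 458.04 and 494.85 FPKM against 189.71 and 217.24 FPKM (1.27, SE 0.16, adjusted p = 0.0763), with little spread within either group. The libraries of the other mutants held CHA1 at 236.48 to 837.36 FPKM, all above both WT libraries, so its rise was not particular to the HSP26 deletion. The phosphate list had 3 of 25 genes called higher and 1 lower, with a median of 0.13 and 2 to 5 higher calls when 1 library was left out. Its high-affinity transporter PHO84 was at 477.93, 349.00 and 588.13 FPKM against 220.36 and 199.10 FPKM (1.14), and its sodium-coupled transporter PHO89 at 62.79, 40.63 and 19.64 FPKM against 12.95 and 9.01 FPKM (1.69). The acid phosphatase gene PHO3, which in contrast to its relatives serves thiamine uptake, was called lower at 77.54, 76.48 and 72.85 FPKM against 125.89 and 131.19 FPKM (−0.76, SE 0.14, adjusted p = 0.117).

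The hexose transporter and sensor list had 5 of 20 genes called higher, a median of 0.44, and 2 called with scaling, and 2 to 7 when 1 library was left out. HXT3, a low-affinity glucose transporter, was at 569.44, 332.44 and 514.27 FPKM against 258.62 and 274.86 FPKM (log2 difference 0.79). HXT1, used at high glucose, was at 0.83 on the same scale of differences, and HXT6, called as well, is nearly identical to HXT7 and thus uncertain. Of 29 sulfate assimilation and methionine genes, 5 were called higher, with a median of 0.23, and 1 to 8 when 1 library was left out. MET6, methionine synthase, was at 182.52, 50 and 181.98 FPKM against 37.14 and 35.08 FPKM (1.69, SE 0.53, adjusted p = 0.274), so replicate 2 of the deletion was again the nearest to WT. MET28, MET13, SAM2 and STR3 were the other members called.

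Ergosterol is the main sterol of the yeast plasma membrane, and its synthesis and uptake genes are controlled by Upc2 and Ecm22. Of 32 tested genes, 9 were called higher and none lower, and the median was 0.51. All deletion libraries were above both WT libraries for 24 genes and below both for 1. The count was 8 with scaling and 6 to 15 when 1 library was left out. ERG5, the C-22 desaturase, was at 96.36, 45.10 and 104.86 FPKM against 31.56 and 27.19 FPKM (log2 difference 1.37, SE 0.35, adjusted p = 0.200). ERG3, the C-5 desaturase, was at 990.97, 610.93 and 768.06 FPKM against 450.57 and 378.80 FPKM (0.91). ERG25, the C-4 methyl oxidase, was at 646.62, 474.32 and 778.68 FPKM against 398.72 and 339.24 FPKM (0.75, adjusted p = 0.267). These 3 enzymes need iron and molecular oxygen. HES1, an oxysterol-binding protein of sterol transport, was at 36.99, 11.57 and 18.23 FPKM against 4.84 and 3.64 FPKM (2.01). UPC2 had a difference of 0.76 and HMG2, an HMG-CoA reductase, 0.77. The Upc2 core TCGTATA, on either strand, was found in 7.03% of all windows and before 2 of the 9 called genes, ERG3 and ERG25. TYS1 DAmP libraries held HES1 at 58.12 to 286.81 FPKM, above every HSP26 deletion library. Their list medians relative to WT were 1.08, 0.63 and 0.57 in replicates 1, 2 and 3, against 0.67, 0.25 and 0.57 in the HSP26 deletion.

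TIR1, a cell wall mannoprotein of cold and low oxygen, was at 874.23, 314.41 and 234.45 FPKM against 95.77 and 98.24 FPKM in WT (log2 difference 2.04, SE 0.50, adjusted p = 0.193). The TYS1 DAmP libraries held 2003.1 to 4049.78 FPKM of the same transcript. TIR1, TIR3 and the activator gene MGA2 were the 3 called of 17 hypoxic genes, whose median was 0.45, with 2 to 5 higher calls when 1 library was left out. CYC1, the major cytochrome c isoform of the respiratory chain, went the other way: it was at 12.52, 26.16 and 16.94 FPKM against 80.77 and 83.14 FPKM (−2.15, SE 0.28, adjusted p = 0.0763). It was the only one of 42 respiratory chain and ATP synthase genes called lower, while the activator genes HAP1 and HAP4 were called higher, neither of them without WT replicate 2, and the list median was −0.07. Of 18 tricarboxylic acid cycle genes, 5 were called higher and 1 lower. The higher ones included ACO1, the mitochondrial aconitase, at a log2 difference of 0.92, IDH2 at 0.75 and CIT1 at 0.72. The higher calls of this list numbered 1 without replicate 1 of the deletion or of WT, and 2 without replicate 3 of the deletion or replicate 2 of WT. Mitochondrial ribosomal protein genes had a median of −0.31 with 1 of 72, MRPL15, called lower, against 24 without replicate 2 of the deletion.

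**Figure D5:**
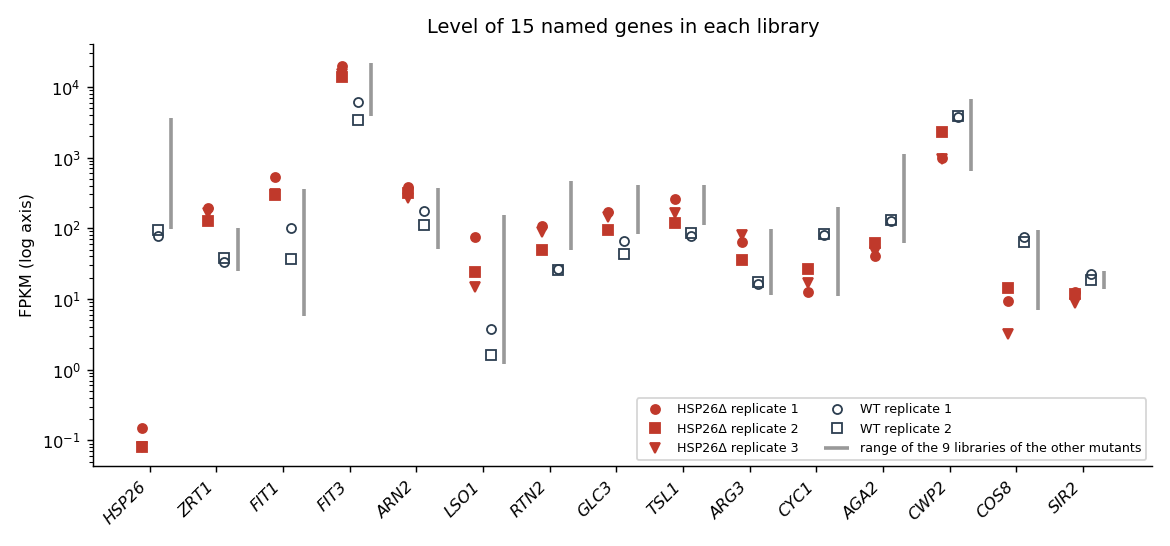
FPKM on a log axis of selected genes in the 3 HSP26 deletion and 2 WT libraries, 1 point for each library. Grey bars give the range of the 9 libraries of the other mutants. HSP26 falls from 77.49 to 94.55 FPKM in WT to 0.08 to 0.15 FPKM, ZRT1 lies at 126.98 to 191.97 FPKM against 32.93 to 38.55, and CYC1 at 12.52 to 26.16 FPKM against 80.77 to 83.14.

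Apart from HSP26 and CYC1, the called falls larger than that of CWP2, described below, were at genes near chromosome ends and in repeats. COS8, of a family of membrane proteins that help sort cargo for the vacuole, was at 9.35, 14.13 and 3.18 FPKM against 75.26 and 63.99 FPKM in WT (log2 difference −3.02, SE 0.48, adjusted p = 0.0988). COS8, COS12 and COS1 were the 3 called of 11 COS genes, all lower, and the family median was 0.04. YHR054C, in the repeat that carries the copper metallothionein gene CUP1, was at 10.76, 13.46 and 2.35 FPKM against 44.98 and 40.84 FPKM (−2.40). Members of these families share sequence, so their FPKM values are uncertain. A repeat copy number that differs between strains was not tested. YIR042C, of unknown function, was at 7.07, 3.39 and 4.6 FPKM against 23.85 and 20.26 FPKM (−1.98). The other called falls of this group were in YHL050C (−2.23), YMR321C (−2.13), YFL067W, which was at 0.3, 2.93 and 0.31 FPKM against 8.24 and 5.14 FPKM, and COS12 (−1.99), of which all but YMR321C were at or under 2.93 FPKM in every deletion library. COS8 means were 27.8 FPKM in the NIT3 deletion and 19.72 FPKM in TYS1 DAmP, against 69.62 FPKM in WT. In the same order, YHL050C was at 4.707 and 3.74 against 12.33 FPKM, and COS12 at 0.91 and 1.187 against 5.525 FPKM. In the MSB3 deletion these means were 77.34, 14.14 and 7.497 FPKM. YFL067W was at 4.48 to 10.9 FPKM in the other mutants. These falls were thus not all particular to the HSP26 deletion. LOH1 was at 4.59, 5.98 and 3.14 FPKM against 12.25 and 10.14 FPKM (−1.16).

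Among genes that mark the cell surface, CWP2, a major mannoprotein of the cell wall, was at 971.67, 2281.14 and 941.57 FPKM against 3696.43 and 3929.64 FPKM (log2 difference −1.58), with replicate 2 between the other deletion libraries and WT. The cell wall list had 3 higher calls of 32, CRH1, PIR3 and PST1, but none without WT replicate 1, 1 and 2 without replicates 1 and 3 of the deletion, and 5 and 7 without WT replicate 2 and replicate 2 of the deletion. AGA2, the binding subunit of a-agglutinin, was at 40.78, 62.48 and 45.79 FPKM against 125.24 and 131.13 FPKM (−1.37, SE 0.20, adjusted p = 0.0888). The alpha-factor protease gene BAR1 was at 6.36, 8.41 and 3.61 FPKM against 16.95 and 11.01 FPKM (−1.10). Both genes are specific to a cells and remained expressed. IMD2, an IMP dehydrogenase of guanine nucleotide synthesis whose transcript responds to guanine levels, was at 17.5, 44.15 and 35.95 FPKM against 83.36 and 81 FPKM (−1.41), and IMD4 had a difference of −0.75. These were the only 2 calls among 17 purine synthesis genes, with 4 without replicate 2 of the deletion. Cyclins and their inhibitors had no call among 19 genes, and of 10 core histone genes 1, HHT1, was called lower with a list median of −0.31, and 4 were without replicate 2 of the deletion.

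A few further large rises stood outside the lists. PBI1, of unknown function, was at 116.54, 24.5 and 42.73 FPKM against 6.83 and 6.69 FPKM in WT (log2 difference 2.71). In the other mutants PBI1 was at 5.86 to 481.48 FPKM, with the highest value in TYS1 DAmP replicate 1. YLL066C, a helicase-like frame of the subtelomeric Y′ repeat, was at 17.4, 8.71 and 12.21 FPKM against 0.95 and 2.01 FPKM (2.46). The libraries of the other mutants held it at 10.33 to 37.28 FPKM, so the WT libraries were the low ones. This frame shares sequence with other copies and is uncertain. PMP2, a small regulator of the plasma membrane proton pump that is nearly identical to PMP1, was at 9.91, 10.59 and 10.85 FPKM, against 4.56 FPKM in WT replicate 1 and a listed 0 in WT replicate 2.

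Most of the regulators that the study tested for lifespan were not called in the HSP26 deletion. Of 11 in the list, HSP26 included, 1 was called higher and 2 lower. The higher one was ERG25, given above. SIR2, the histone deacetylase that silences ribosomal DNA and telomeres and promotes replicative lifespan, was called lower beside HSP26, at 12.38, 11.64 and 8.68 FPKM against 22.53 and 18.55 FPKM (log2 difference −0.86, SE 0.19, adjusted p = 0.169). The groups did not overlap. MSB3, a GTPase-activating protein of polarised growth, was at 27.62, 20.03 and 27.19 FPKM against 15.96 and 19.96 FPKM (0.45). NIT3, a nitrilase family member, was at 222.15, 232.18 and 214.50 FPKM against 270.13 and 270.89 FPKM (−0.28). None of the genes perturbed in the other strains was called here, and TYS1, the tyrosyl-tRNA synthetase, had a difference of −0.10. RHO5, a small GTPase of oxidative stress and nutrient signalling, was at 173.13, 131.61 and 185.84 FPKM against 104.50 and 126.22 FPKM (0.49). MSB3, NIT3 and RHO5 also had groups that did not overlap, though none of them was called. Over the list, all deletion libraries lay above both WT libraries for 4 members (27.6% of all genes) and below both for 3 (13.2%).

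Comparison with WT alone does not say which differences are particular to the HSP26 deletion, since all mutants share the same 2 WT libraries. The HSP26 deletion was therefore compared directly with the mean of the 3 other mutants in 1 limma fit over all 14 libraries, which does not use WT in the contrast. In this contrast 61 genes (1.07%) were called higher and 157 (2.74%) lower, and 4 (0.0698%) passed the adjusted threshold. Those 4 were the perturbed genes: HSP26 (log2 difference −8.39), and NIT3 (2.40), MSB3 (1.56) and TYS1 (0.93), each the target in one of the other strains. No further gene was distinguished at this threshold. ZRT1 was 1.79 higher on the log2 scale than in the other mutants (SE 0.35, adjusted p = 0.202). FIT1 was 2.65 higher (SE 0.94), CYC1 was −1.82 (SE 0.56), and SIR2 −0.69 (adjusted p = 0.428), none of them past the adjusted threshold. TYS1 DAmP also held CYC1 (10.95 to 47.93 FPKM) and SIR2 (13.64 to 17.03 FPKM) below both WT libraries. In the MSB3 and NIT3 deletions CYC1 was at 25.92 to 185.89 and 63.73 to 200.3 FPKM. SIR2 was at 17.56 to 22.22 and 15.82 to 24.86 FPKM in the same order.

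The lists differed in how they compared with the other mutants. The iron list had 9 of 39 genes called higher and none lower, with a median of 0.41 against −0.08 for all genes. The count rested on the libraries of the deletion, with 1 called without replicate 1, 5 without replicate 2 and 15 without replicate 3, and it was 5 without replicate 1 of the MSB3 deletion. The list had 11 higher against the MSB3 deletion alone, 8 higher and 1 lower against the NIT3 deletion alone, and 1 higher against TYS1 DAmP alone. The FIT genes took 0.382 to 2.82% of the FPKM sum in the other mutant libraries, so the upper end of this range reached the level of the HSP26 deletion. Ribosomal protein genes and both assembly lists had no call in either direction in this contrast, with medians of 0.13, 0.10 and 0.14. The general stress list had no gene called higher and 2 lower, with a median of −0.45. The lower calls numbered 19 against the NIT3 deletion alone, 1 against the MSB3 deletion alone and 0 against TYS1 DAmP alone, where the median was −0.10, and they were 0 without replicate 3 of the HSP26 deletion and 13 without replicate 1 of the NIT3 deletion. HSP12 was at 166.87 to 5459.33 FPKM in the other mutants, above every HSP26 deletion library. Mitochondrial ribosomal protein genes had 20 of 72 called lower than in the other mutants, with a median of −0.47. That count was 11, 42 and 1 without replicate 1, 2 and 3 of the HSP26 deletion. Leaving out 1 library of the other mutants gave 8 to 39. It was 9 without replicate 2 of the NIT3 deletion, the library with the lowest share of ribosomal protein transcripts (18.05%), 8 with scaling and 2 against TYS1 DAmP alone.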

How the data were processed

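mRNA libraries of 14 yeast samples were sequenced by the study, and FPKM values per gene were deposited by the authors in 1 table. Per the submitters' processing notes, reads were handled with HISAT2 2.1.0, Bowtie2 and RSEM 1.3.1 on R64, and the deposited FPKM values were estimated from those alignments. FPKM sets each library to its own total, so abundant transcripts that take a larger share lower the values of all other genes. No column lacked a sample (0 unmatched).

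Groups followed the sample titles. For the HSP26 deletion (3 libraries) and WT (2 libraries), log2(FPKM + 1) was fitted with limma 3.58.1 (R 4.3.3, eBayes with trend and robust options), without a filter other than a mean of at least 1 FPKM. A fold is on this log2 scale and understates changes of low genes. Depth was recovered approximately from the steps of low values in 127 short genes, of which 90.7% lay within 0.15 of a whole number of fragments. Counting intervals cover counting error only. The genes named are those with an adjusted p under 0.05 in either comparison, the 15 largest non-overlapping rises and falls among called genes with at least 5 FPKM in the higher group, called members and regulators of the lists, regulators tested for lifespan, and genes within 10 places of HSP26. BTN2, HSP42, HSP104 and other uncalled list members were named after their values were seen. The comparison, the lists and the tests were chosen with earlier results of these data known. A result for a single gene is not reported here. Gene names matched RefSeq R64 directly for 5868 genes, by an older name for 9 and not for 9. Alternatives covered the pseudocount, the filter, scaling, the samples fitted, array weights, the variance prior, linear values, a replicate block and leaving out each library. Scripts were tested on simulated data. Python 3.11.15, pandas 2.3.3, NumPy 2.4.6 and matplotlib 3.10.9 were used for the remaining steps.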

Additional observations from a re-analysis of the deposited data

How the results depend on the processing

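Against WT, the number of genes called (463, of which 325 higher) stayed within 1.5-fold with scaling (505), a smaller pseudocount of 0.1 (485), all genes kept (468), genes above 10 FPKM alone (417), a constant variance prior (468), array weights (641) and the replicate block. It was 229 (175 higher, 54 lower) in 1 fit over all 5 groups and 140 (64 higher, 76 lower) on linear FPKM, and 291 to 948 when 1 library was left out, the highest without replicate 2 of the HSP26 deletion. The number with adjusted p under 0.05 (2) was 1 with all genes kept, with scaling and with a constant variance prior, 185 with array weights, 0 in the fit over all groups and on linear FPKM (where 301 genes by limma and 554 by an ordinary linear model had an unadjusted p under 0.05), and 1 to 468 when 1 library was left out. The leave-one-out fits over the libraries of the other mutants were added after seeing the data. With 1 WT library left, its spread was assumed to be that of the deletion group. Against the other mutants, the 218 calls became 90 against TYS1 DAmP alone and 520 against the NIT3 deletion alone, and 111 to 418 when 1 library was left out, and the 4 genes with adjusted p under 0.05 became 2 against the MSB3 or the NIT3 deletion alone and 3 to 8 when 1 library was left out. Of 199 named genes called against WT, none changed direction under the 14 settings of that comparison, but 133 were no longer called on linear FPKM, 89 in the fit over all groups and 71 and 76 without WT replicate 1 or 2. The cause of these differences was not tested.

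HSP26 deletion and WT libraries share the replicate numbers 1 and 2, and their deviations from the group means correlated at −0.13 and −0.27. With 2 WT libraries, the deviations of one mirror those of the other, so these correlations are not separate checks. They do not settle whether the numbers pair the libraries. With the replicate block, 497 genes were called (379 higher, 118 lower) and 180 passed the adjusted threshold. Depth limited the HSP26 level in the deletion, which rests on about 4 fragments.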

Other observations

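Reading frames of Ty retrotransposons, a group added after their values were seen, made up 8.0% of the genes called higher. Of 71 tested, 26 were called higher and 1 lower, with a median log2 difference of 0.44 against 0.08 for all genes, and the counts were 25 and 2 with scaling and 30 and 6 without replicate 2 of the HSP26 deletion. All deletion libraries lay above both WT libraries for 37 of them (27.6% of all genes) and below both for 4 (13.2%). YBR012W-A was at 27.64, 48.52 and 45.1 FPKM against 11.56 and 7.46 FPKM in WT (1.97), and YNL284C-B at 127.45, 57.1 and 119.43 FPKM against 27.65 and 25.02 FPKM (1.82). YJR028W, the member called lower, was at 16.83, 16.74 and 20 FPKM against 36.00 and 35.44 FPKM (−0.97). YBR012W-B (1.87), YER160C (1.74) and YLR035C-A (1.71) were among the largest called rises. The largest negative differences were in uncalled frames that split the deletion libraries. YGR161C-C was at 0, 82.16 and 0.13 FPKM in the deletion against 69.31 and 53.64 FPKM in WT (−3.77, SE 2.13), and YDR098C-A at 0, 81.04 and 0 FPKM against 50.40 and 46.49 FPKM (−3.51, SE 2.15), so replicate 2 was above both WT libraries while replicates 1 and 3 were listed at or near 0. Against the other mutants 14 were called higher and none lower. Ty copies are nearly identical, so the assignment of fragments to a copy is uncertain, and the copies do not count as independent genes.

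Genes within 25 kb of a chromosome end made up 4.65% of the genes tested (266 of 5721), 6.79% of those called higher (22 of 324) and 15.2% of those called lower (21 of 138).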
